A study of Danio rerio with 12 samples.

Results

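The genes that encode the chains of collagen, the main structural protein of connective tissue, were followed in whole zebrafish (Danio rerio) larvae on 12 Affymetrix Zebrafish Gene 1.0 ST arrays. A collagen chain gene was any probe set with a single gene symbol made of the letters col, a type number, the letter a and a chain number. The 52 probe sets that met this rule came from 47 genes, out of 18985 genes named by a probe set with 1 symbol, and the probe set with the highest mean over the 12 arrays stood for its gene. The rule used no difference between groups. All 47 genes passed the filter on low values, and all 47 matched a RefSeq gene of the same symbol through their gene ID. The classes followed both chain structure and tissue, so that chains known chiefly from cartilage were kept together although types II, XI and XXVII form fibrils, type IX is fibril-associated and type X makes networks. By type, 8 were put in a fibrillar class (types I and V), 11 in a cartilage class (types II, IX, X, XI and XXVII), 11 in a basement membrane class (types IV, VII, XV and XVIII), 3 in a beaded filament class (type VI), 4 in a class of fibril-associated chains (FACIT, types XII, XIV, XVI and XXI), 3 in a network class (type VIII) and 3 in a transmembrane class (types XVII and XXIII), and the 4 chains of type XXVIII made up the rest.

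Collagen chains assemble in the endoplasmic reticulum into a triple helix whose prolines and lysines are hydroxylated, and the secreted molecules are trimmed and crosslinked outside the cell. Fibrillar chains make the cables of dermis, tendon, fin fold and bone, type II with its partners IX and XI makes the fibrils of cartilage and, in fish larvae, of the notochord sheath, and type IV makes the mesh of basement membranes. In the zebrafish larva the notochord sheath and the fin folds are laid down first, and the cartilage of the head and the first bones follow.

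The larvae were of the AB wild-type line. Per the labels, embryos were dechorionated with Proteinase K and injected with a KCl solution of TRITC-dextran that carried 5-HT (serotonin), reserpine, a blocker of the vesicular transport of monoamines, or, in the controls, the solvents DMSO and ethanol. The titles place the 5-HT and reserpine injections at the zygote stage, and the dose is not given in the sources used here. Larvae were taken at 2 or 4 days post fertilisation (dpf), which gave 6 groups of 2 arrays: 2 dpf control, 2 dpf 5-HT, 2 dpf reserpine, 4 dpf control, 4 dpf 5-HT and 4 dpf reserpine. Each array held the RNA of a pool of 30 to 40 whole larvae. A change in the share of collagen-making cells in the larva and a change in collagen RNA per cell could therefore not be told apart. The labels call the replicates biological but do not say whether they came from separate clutches, so p-values measure the spread between these pools. The series title names serotonin acting ahead of the nervous system as its subject, and the comparisons below describe the collagen genes between the ages and between the injections.

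Levels are on the log2 scale, and array medians ran from 6.44 to 6.56. The correlation between the replicates of a group was 0.975 to 0.988, and between a 2 dpf and a 4 dpf array it was 0.934 to 0.966. The 6 measured exocrine pancreas markers, used as a check of age, had a list mean of 6.49 to 7.89 on the 2 dpf arrays and 12.53 to 12.92 on the 4 dpf arrays. At 2 dpf this mean was lower on replicate 1 than on replicate 2 in each injection. It was 6.49 and 7.70 in the controls, 6.89 and 7.89 with 5-HT, and 6.70 and 7.585 with reserpine. The reason for this difference between the 2 dpf replicates was not tested. The list mean of 4 dpf reserpine replicate 2, whose description gives another age than its title, was 12.53. Of the cell type markers past the filter on low values, chondrocyte, osteoblast, notochord and fin fold markers among them, none fell under the 25th percentile of any array. The filter itself used that percentile, and markers it removed were not counted.

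Between replicates the collagen genes were not equally spread in all groups. In the 2 dpf 5-HT group, replicate 1 read higher than replicate 2 for 40 of the 47 collagen genes, by a median of 0.31 log2, whereas over all genes it read higher for 49.5%. In the 2 dpf reserpine group replicate 1 read higher for 29 of 47 (41.6% of all genes), and the widest gap was 0.76 log2 for col18a1a. In the 2 dpf control group it read higher for 31 of 47 (58.9% of all genes). At 4 dpf replicate 1 read higher for 22 of 47 in the control group (50.1% of all genes). It did so for 15 of 47 with 5-HT (48.2%) and for 25 of 47 with reserpine (61.9%). For many of the class medians given below, the value without 1 array is given too. A median given without such a value is not thereby stable. The heat map of the 47 genes shows replicate 1 of the 2 dpf 5-HT and 2 dpf reserpine groups as darker red columns in the fibrillar, basement membrane and FACIT classes.

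**Figure D1:**
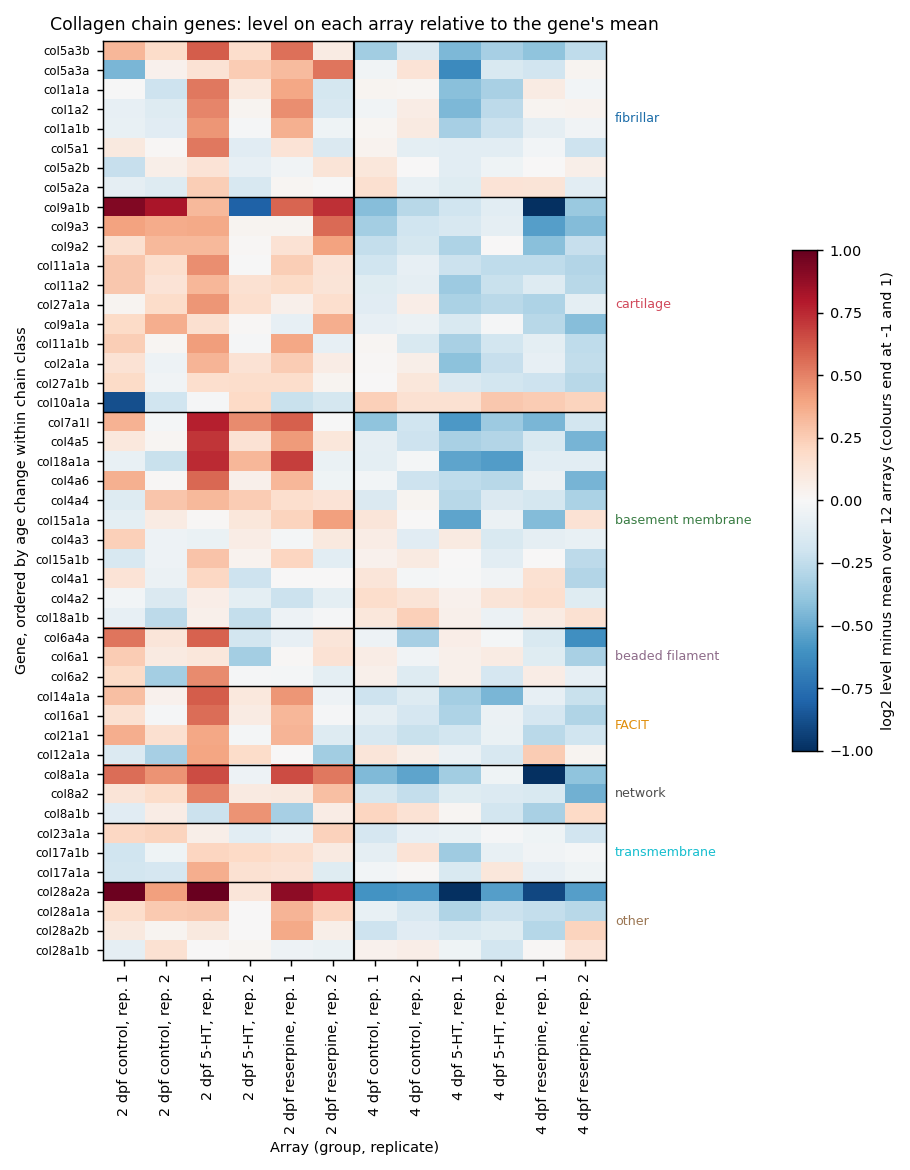
Level of each of the 47 collagen chain genes (rows, by class) on each of the 12 arrays (columns), as log2 level minus the gene's mean over the 12 arrays; colours end at -1 and 1, and the vertical line parts 2 dpf from 4 dpf. Most rows are redder at 2 dpf than at 4 dpf, col10a1a runs the other way, and 2 dpf 5-HT replicate 1 is redder than replicate 2 in 40 of 47 rows.

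Most collagen chain genes read lower at 4 dpf than at 2 dpf in the mean of the injections, and less clearly so in the controls alone. In the mean of the 3 injections, 39 of 47 were below 0, against 56.5% of all genes, and the median log2 change was -0.28, against -0.06 over all genes. In limma's fit 22 collagen genes passed an adjusted p of 0.05 (Benjamini-Hochberg over all 58127 features tested), 21 of them lower and 1 higher. Of all genes 37.3% passed, 20.4% lower and 17% higher. For 12 of the 47 every 4 dpf array lay below every 2 dpf array, which held for 13.4% of all genes. The share that passed in either direction was thus close to that of all genes, and the share that fell was above it. A difference of this contrast had a median standard error (SE) of 0.11 log2 over the features tested. In the controls alone 28 of 47 collagen genes were lower at 4 dpf, against 54.1% of all genes, with a median of -0.13 log2. That control median was -0.085 without 2 dpf control replicate 1 and -0.23 without replicate 2. With 5-HT 42 of 47 were lower (53.6% of all genes), and with reserpine 39 of 47 (55.5%).

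**Figure D2:**
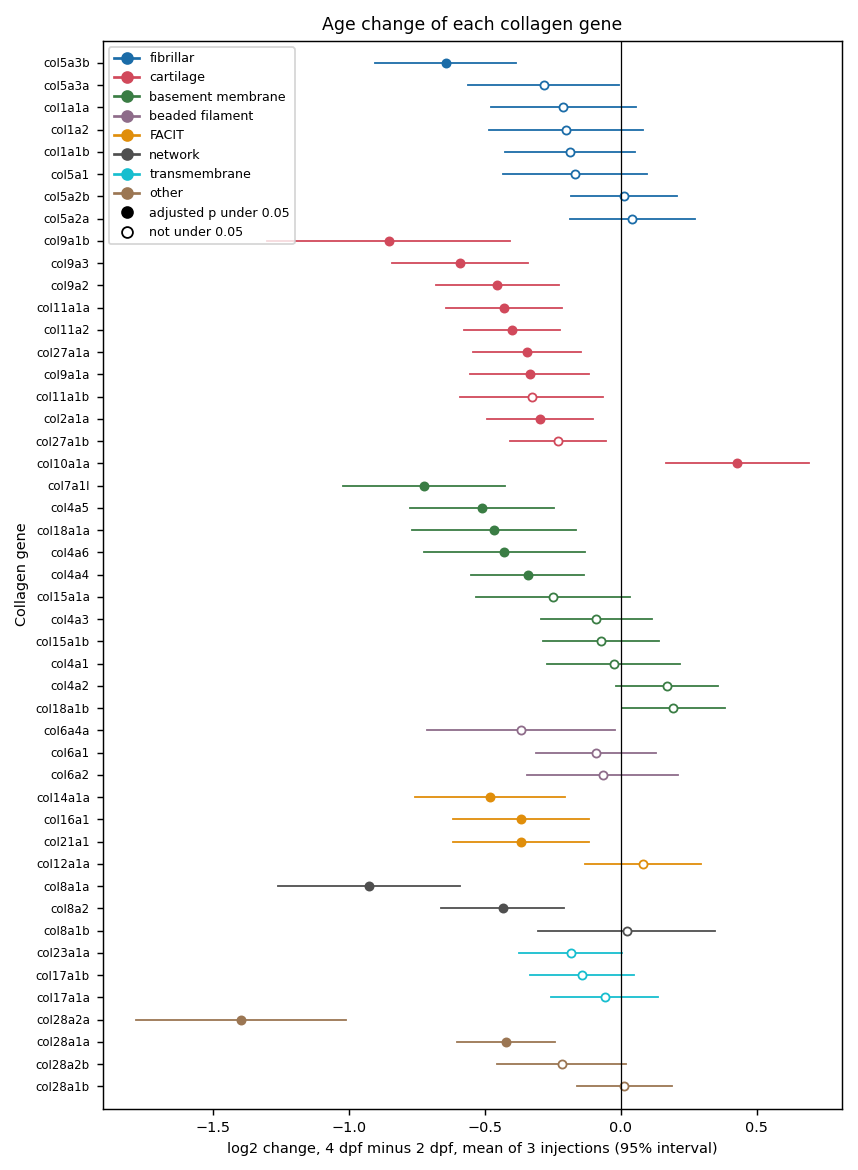
Log2 change from 2 to 4 dpf of each collagen gene in the mean of the 3 injections (x axis), with its 95% interval from limma, by class (colours); filled points passed an adjusted p of 0.05. The interval lies below 0 for the 21 genes that fell and above 0 for col10a1a, and the col1 and col6 chains are open points.

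Type XXVIII and type VIII chains held the largest falls. The gene col28a2a encodes a chain of type XXVIII, a von Willebrand A domain collagen known in mouse from the sheaths of peripheral nerves. It read 9.29 and 8.72 in the 2 dpf controls, 9.30 and 8.43 with 5-HT and 9.20 and 9.11 with reserpine, and 7.71 and 7.73, 7.30 and 7.76, and 7.40 and 7.76 in the same groups at 4 dpf. All 6 arrays of 4 dpf lay below all 6 of 2 dpf, a fall of 1.40 log2 (SE 0.17, limma adjusted p = 4.35e-04), or 2.64-fold. Of the other type XXVIII chains, col28a1a fell by 0.42 log2 (SE 0.08, limma adjusted p = 0.00492), with no overlap between the ages, while col28a2b stood at -0.22 and col28a1b at 0.01 and did not pass. The type VIII gene col8a1a, which in zebrafish is needed for a straight notochord and spine, read 9.69 and 9.58 in the 2 dpf controls, 9.79 and 9.08 with 5-HT and 9.79 and 9.66 with reserpine. At 4 dpf it read 8.69 and 8.61, 8.79 and 9.09, and 8.11 and 8.73. The lower 5-HT array of 2 dpf and the higher 5-HT array of 4 dpf lay within 0.01 of each other, and elsewhere the ages were apart. The fall of col8a1a was 0.93 log2 (SE 0.15, limma adjusted p = 0.00202). Its partner chain col8a2 fell by 0.44 log2 (SE 0.10, limma adjusted p = 0.0126) with no overlap, and col8a1b stood at 0.02.

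The cartilage class had the most calls among the 3 large classes. In the mean of the injections 8 of its 11 genes fell and 1 rose, with a class median of -0.34 log2. All 4 chains of type IX, the collagen that decorates cartilage fibrils, fell: col9a1b by 0.86 (SE 0.20), col9a3 by 0.59 (SE 0.11), col9a2 by 0.46 (SE 0.10) and col9a1a by 0.34 log2 (SE 0.10), with limma adjusted p from 0.00464 for col9a3 to 0.0330 for col9a1a. For col9a3 the 2 dpf arrays read 10.61 and 10.58 (control), 10.59 and 10.24 (5-HT), and 10.24 and 10.78 (reserpine). The 4 dpf arrays read 9.87 and 10.01, 10.05 and 10.12, and 9.66 and 9.78, all below the 2 dpf arrays. For col9a1b the 5-HT arrays stood apart. This gene read 10.77 and 10.66 in the 2 dpf controls and 10.43 and 10.58 with reserpine, but 10.17 and 9.04 with 5-HT, and the 4 dpf arrays read 9.42 and 9.57 (control), 9.65 and 9.74 (5-HT), and 8.66 and 9.48 (reserpine).

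Of the fibril-forming cartilage chains, the type XI genes col11a1a and col11a2, whose chains set the width of type II fibrils, fell by 0.43 log2 (SE 0.10, limma adjusted p = 0.0102) and 0.40 log2 (SE 0.08, limma adjusted p = 0.00562), each with no overlap between the ages. The type XXVII gene col27a1a, expressed in zebrafish in notochord and cartilage, fell by 0.34 log2 (SE 0.09, limma adjusted p = 0.0201). Their duplicates col11a1b (-0.33, limma adjusted p = 0.0697) and col27a1b (-0.23, limma adjusted p = 0.0577) did not pass. The type II gene col2a1a, the major chain of cartilage and notochord sheath, read 11.50 and 11.31 in the 2 dpf controls, 11.70 and 11.50 with 5-HT and 11.61 and 11.43 with reserpine. At 4 dpf it read 11.37 and 11.42, 10.95 and 11.13, and 11.28 and 11.11. Its control arrays thus lay in the same range at both ages, and its arrays were lower at 4 dpf with 5-HT and with reserpine. The mean fall was 0.30 log2 (SE 0.09, limma adjusted p = 0.0326), and col2a1a no longer passed once 2 dpf control replicate 1 (adjusted p = 0.0780) or 2 dpf 5-HT replicate 1 (0.0867), among others, was left out.

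One collagen gene rose with age. The gene col10a1a, whose chain marks hypertrophic cartilage cells in mammals and is made in zebrafish also by bone-forming cells, read 10.31 and 10.99 in the 2 dpf controls, 11.18 and 11.39 with 5-HT and 10.97 and 11.01 with reserpine. At 4 dpf it read 11.43 and 11.34, 11.34 and 11.46, and 11.44 and 11.41. The 4 dpf arrays were alike and the 2 dpf arrays were spread, with the lowest value on control replicate 1. The rise was 0.43 log2 in the mean of the injections (SE 0.12, limma adjusted p = 0.0258) and 0.74 log2 in the controls (SE 0.20, limma adjusted p = 0.0472). In the controls the change was 0.40 log2 without 2 dpf control replicate 1. The call in the controls did not rest on that array alone. It was lost without most of the single arrays, those of other injections among them. It was also lost with subtracted medians (limma adjusted p = 0.0517), no filter (0.0567) and only the groups compared (0.141). A further probe set of col10a1a with a similar mean level changed by 0.38 log2 (limma adjusted p = 0.0227), and the third, with a mean level of 6.53, by 0.36 log2 (limma adjusted p = 0.230).

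Of the 11 basement membrane genes 5 fell and none rose, with a class median of -0.25 log2 (-0.15 without 4 dpf reserpine replicate 1). The largest fall was that of col7a1l, named for its likeness to the chain of anchoring fibrils below the epidermis. It read 8.29 and 7.92 in the 2 dpf controls, 8.72 and 8.41 with 5-HT and 8.54 and 7.94 with reserpine, and 7.54 and 7.74, 7.37 and 7.58, and 7.48 and 7.76 at 4 dpf. No array of 4 dpf reached the lowest of 2 dpf, and the change was -0.73 log2 (SE 0.13, limma adjusted p = 0.00410). Of the 6 type IV genes 3 fell. The genes col4a1 and col4a2, whose chains form the mesh found in nearly every basement membrane, stood at -0.03 (SE 0.11, 95% interval -0.27 to 0.22) and 0.17 log2 (SE 0.08, 95% interval -0.02 to 0.36), and neither passed. The genes col4a5, which in zebrafish is needed for the layering of retinal axons, and col4a6, its neighbour in the RefSeq table, fell by 0.51 log2 (SE 0.12, limma adjusted p = 0.0124) and 0.43 log2 (SE 0.13, limma adjusted p = 0.0404). The gene col4a4 fell by 0.34 log2 (SE 0.09, limma adjusted p = 0.0240), and its neighbour col4a3 stood at -0.09. With the 2 probe sets of col4a6 averaged its change was -0.34 log2 (adjusted p = 0.128). The difference between these chains was not tested. Of the 4 chains of types XV and XVIII, whose C-terminal fragments include endostatin, col18a1a fell by 0.47 log2 (SE 0.13, limma adjusted p = 0.0311), and col15a1a (-0.25), col15a1b (-0.07) and col18a1b (0.19) did not pass. The control arrays of col18a1a showed no fall, with 10.07 and 9.92 at 2 dpf and 10.05 and 10.13 at 4 dpf. Its means at 2 and 4 dpf were 10.685 and 9.605 with 5-HT, and 10.46 and 10.04 with reserpine.

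The fibrillar class had 1 call in 8 and a median of -0.19 log2, which was -0.12 without replicate 1 of either the 2 dpf 5-HT or the 2 dpf reserpine group. That gene, col5a3b, a type V chain of the kind that starts and limits the growth of type I fibrils, read 8.95 and 8.80 in the 2 dpf controls, 9.22 and 8.79 with 5-HT and 9.17 and 8.70 with reserpine. At 4 dpf it read 8.27 and 8.47, 8.17 and 8.28, and 8.21 and 8.36, with no overlap, a fall of 0.65 log2 (SE 0.12, limma adjusted p = 0.00357). The other type V genes stood at -0.28 (col5a3a), -0.17 (col5a1), 0.01 (col5a2b) and 0.04 log2 (col5a2a). The 3 genes of type I, the bulk collagen of skin and bone, stood at -0.21 (col1a1a, SE 0.12), -0.20 (col1a2, SE 0.13) and -0.19 log2 (col1a1b, SE 0.11), with limma adjusted p of 0.231, 0.285 and 0.237.

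In the remaining classes, 3 of the 4 FACIT genes fell. They were col14a1a (by 0.48 log2, SE 0.12), known in zebrafish embryos from the epidermis, col16a1 (0.37, SE 0.11) and col21a1 (0.37, SE 0.11), with limma adjusted p of 0.0188, 0.0393 and 0.0384. The fourth, col12a1a, whose chain coats type I fibrils in fasciae and tendon, stood at 0.08 log2. No gene of the beaded filament class passed: col6a1 stood at -0.09, col6a2 at -0.07 and col6a4a at -0.37 log2 (SE 0.15). The same held for the transmembrane genes col17a1a (-0.06), col17a1b (-0.14) and col23a1a (-0.19), of which the col17 chains are parts of the hemidesmosomes that anchor skin cells.

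Of the 22 calls, 12 were kept in every alternative setting and without any 1 array, among them those of col28a2a, col8a1a, col7a1l, col5a3b, 3 of the type IX genes and both called type XI genes. Leaving out 4 dpf control replicate 1 gave 12 calls, and leaving out replicate 1 of the 5-HT group of either age gave 13. Calls that were lost without at least 1 array were those of col10a1a, col14a1a, col16a1, col18a1a, col21a1, col27a1a, col2a1a, col4a4, col4a6 and col9a1a.

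Within single injections fewer collagen genes passed. In the controls 3 of 47 passed, against 15.5% of all genes (8.28% higher and 7.19% lower): col28a2a fell by 1.29 log2 (SE 0.30, limma adjusted p = 0.0260), col8a1a fell by 0.99 (SE 0.26, limma adjusted p = 0.0398) and col10a1a rose. With reserpine 4 of 47 passed, against 11.1% of all genes, all lower (4.54% of all genes passed as lower). They were col28a2a (by 1.58 log2, SE 0.30), col9a1b (1.44, SE 0.35), col8a1a (1.31, SE 0.26) and col9a3 (0.79, SE 0.19), with limma adjusted p of 0.0143, 0.0382, 0.0176 and 0.0404. With 5-HT 7 of 47 passed, against 12% of all genes, all lower (4.62% of all genes passed as lower). The largest of these falls were those of col28a2a (1.34 log2, SE 0.30), col7a1l (1.09, SE 0.23) and col18a1a (1.08, SE 0.23), and the others were those of col5a3b (0.78), col27a1a (0.60), col2a1a (0.56) and col11a2 (0.53). Without 2 dpf 5-HT replicate 1, or without either 4 dpf 5-HT array, none of the 47 passed with 5-HT. No collagen passed in the controls without 2 dpf control replicate 1 or either 4 dpf control array, and none with reserpine without 2 dpf reserpine replicate 2 or 4 dpf reserpine replicate 1. The call of col28a2a was the one made in all 3 injections.

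By direction, 26 of the 47 genes were lower at 4 dpf in all 3 injections, against 35.5% of all genes, and col10a1a, col18a1b and col4a2 were higher in all 3, against 27.1%. For col10a1a this held for the probe set used and not for the one of similar level, which stood at -0.05 log2 with 5-HT. Among the 26 lower genes, col4a6 was lower in all 3 by the probe set used. Its other one stood at 0.205 log2 in the controls, -0.905 with 5-HT and -0.055 with reserpine. The medians by class and injection were as follows, and differences between them were not tested. The fibrillar class had a median of 0.14 log2 in the controls, with 6 of 8 genes above 0 against 45.7% of all genes. Among the 6, col5a3a stood at 0.26 log2 by the probe set used and at -0.41 by its other one. Without 2 dpf control replicate 1 the control median was 0.08. The fibrillar median was -0.12 with reserpine and -0.54 with 5-HT, where 8 of 8 were below 0 against 53.6% of all genes. The basement membrane class had medians of 0.01 (control), -0.40 (reserpine) and -0.36 log2 (5-HT), and the cartilage class -0.31, -0.37 and -0.34 log2 in the same order. Single arrays moved these medians. Without 2 dpf 5-HT replicate 1 the fibrillar median with 5-HT was -0.32, with 5 of 8 below 0, and the cartilage median -0.23 (-0.51 without replicate 2). Without 2 dpf reserpine replicate 1 the fibrillar median with reserpine was 0.00 and the basement membrane median -0.18, and without replicate 2 the fibrillar median was -0.38. The basement membrane median was -0.57 without 4 dpf 5-HT replicate 2, -0.20 with reserpine without 4 dpf reserpine replicate 2, and in the controls -0.05 without 4 dpf control replicate 1. Over all genes the medians were -0.04, -0.06 and -0.04 log2. Across the 47 genes the age change in the controls correlated with that under reserpine at r = 0.90 and with that under 5-HT at 0.32, and over all genes these values were 0.94 and 0.76. These are correlations across genes measured on the same arrays, which are not independent, and the injections share no array. Without 2 dpf 5-HT replicate 1 the value for 5-HT was 0.02, and without replicate 2 it was 0.51.

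**Figure D3:**
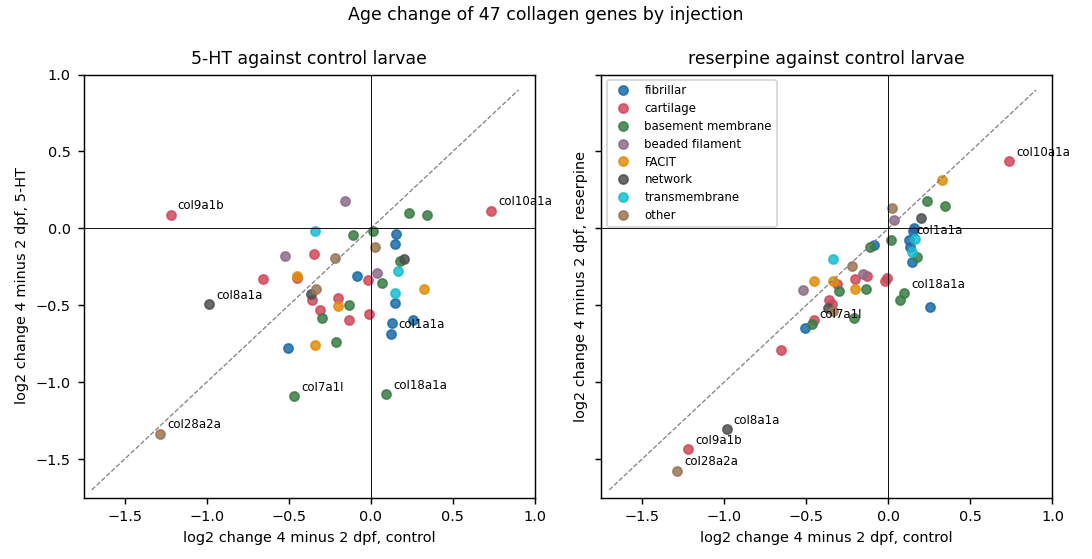
Log2 change from 2 to 4 dpf of the 47 collagen genes in control larvae (x axis) against larvae injected with 5-HT (left) or reserpine (right); each point is a gene, colours give the class and the dashed line marks equal change. Points lie along the line and mostly just below it for reserpine (r = 0.90) and scatter below it for 5-HT (r = 0.32), where the type I gene col1a1a and the basement membrane gene col18a1a are among those above 0 in controls and below 0 with 5-HT.

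Between injections of the same age no collagen gene passed in any of the 6 comparisons (limma, adjusted p under 0.05). At 2 dpf, 5 of 47 had an unadjusted p under 0.05 for 5-HT against control, against 10.9% of all genes, 1 for reserpine against control (1.66%) and 2 for 5-HT against reserpine (2.53%). At 4 dpf the numbers were 1 for 5-HT against control (5.1%), 0 for reserpine against control (0.63%) and 0 for 5-HT against reserpine (7.32%). Of all 18407 genes 1 passed in these 6 comparisons, in 5-HT against control at 2 dpf, 0.00543% of them. Since both injections of an age were set against the same 2 controls, the values of these comparisons are not independent.

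At 2 dpf the chains nearest to the threshold under 5-HT came from several classes. The type IX gene col9a1b stood 1.11 log2 below control (SE 0.35, limma adjusted p = 0.185), and its 5-HT arrays differed from each other by 1.13. The basement membrane gene col18a1a read 10.07 and 9.92 in controls, 10.89 and 10.48 with 5-HT and 10.84 and 10.08 with reserpine. Both 5-HT arrays lay above both controls, with a difference of 0.69 log2 (SE 0.23, limma adjusted p = 0.213). The FACIT gene col12a1a read 11.28 and 11.09 in controls, 11.81 and 11.60 with 5-HT and 11.42 and 11.07 with reserpine, a difference of 0.52 log2 between 5-HT and control (SE 0.17, limma adjusted p = 0.192). Further values were 0.64 log2 for col10a1a (SE 0.20) and 0.43 for the hemidesmosome gene col17a1a (SE 0.15). For reserpine the smallest p was that of the type V gene col5a3a, 0.63 log2 above control (SE 0.21, limma adjusted p = 0.998). Its second probe set gave age changes of another sign in the controls (-0.41 against 0.26 log2), so its values were not alike between probe sets. For 5-HT against reserpine the smallest p-values were those of col12a1a (0.46 log2, SE 0.17, limma adjusted p = 0.804) and col9a1b (-0.90 log2, SE 0.35, limma adjusted p = 0.808).

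At 4 dpf the values nearest to the threshold with 5-HT were below control. The type II gene col2a1a stood 0.36 log2 below control (SE 0.15, 95% interval -0.69 to -0.02, limma adjusted p = 0.567). The gene col18a1a read 10.05 and 10.13 in controls, 9.62 and 9.59 with 5-HT and 10.04 and 10.04 with reserpine, so that the 5-HT arrays lay below the other 4 (difference from control -0.49 log2, SE 0.23, limma adjusted p = 0.619). The type I gene col1a1a read 12.25 and 12.24 in controls, 11.81 and 11.90 with 5-HT and 12.31 and 12.20 with reserpine, again with both 5-HT arrays lowest (difference from control -0.39 log2, SE 0.21, limma adjusted p = 0.651). Differences of 5-HT from reserpine at 4 dpf were 0.52 log2 for col8a1a (SE 0.26) and -0.40 for col1a1a (SE 0.21). For reserpine against control the smallest p was that of col27a1b (-0.30 log2, SE 0.14, limma adjusted p = 1).

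**Figure D4:**
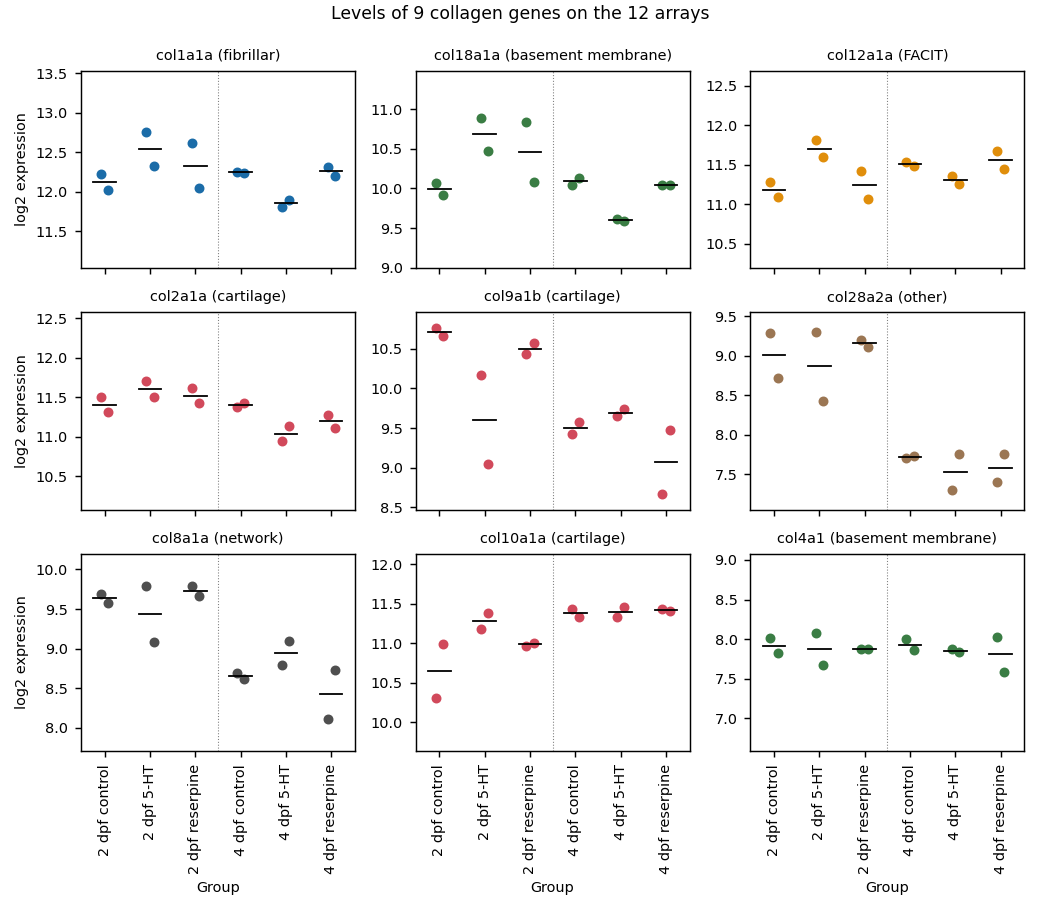
Log2 level of 9 collagen genes on the 12 arrays; points are arrays, bars are the means of 2 arrays, every panel spans the same log2 range, and the dotted line parts 2 dpf from 4 dpf. The 2 arrays of 4 dpf 5-HT are the lowest of their age for col1a1a (11.81 and 11.90) and col18a1a (9.62 and 9.59), col28a2a and col8a1a are lower at 4 dpf, and col4a1 stays between 7.58 and 8.08.

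By class, the fibrillar genes were on opposite sides of control at the 2 ages under 5-HT. At 2 dpf 8 of 8 stood above control, against 49.6% of all genes, with a median of 0.23 log2. At 4 dpf 8 of 8 stood below, against 43% of all genes, with a median of -0.23 log2. Both counts take col5a3a by the probe set used. By its other probe set the age change was -0.41 log2 in controls and -0.05 with 5-HT. With those values col5a3a could not stand above control at 2 dpf and also below it at 4 dpf. The medians over all genes were 0.00 and 0.03 log2. These signs were not particular to the fibrillar class. Of all 47 collagen genes 32 stood above control at 2 dpf and 36 below at 4 dpf. Their 2 dpf median was 0.13 log2, -0.015 without 2 dpf 5-HT replicate 1 and 0.285 without replicate 2. Of the 11 basement membrane genes 9 stood above and then 11 below. The type II, XI and XXVII genes of the cartilage class also stood above control at 2 dpf, some only slightly, and below it at 4 dpf. For the type I genes both 5-HT arrays lay above both controls at 2 dpf in 3 of 3 (21.2% of all genes did so) and below both at 4 dpf in 3 of 3 (19.7% of all genes did so), with medians of 0.36 and -0.38 log2. The arrays of 2 dpf were not alike: the fibrillar median, taken relative to each gene's mean, was 0.46 on 5-HT replicate 1 and 0.01 on replicate 2, 0.34 on reserpine replicate 1 and -0.02 on replicate 2, and -0.08 and -0.05 on the controls. At 4 dpf it was -0.37 and -0.18 on the 5-HT arrays, 0.02 and 0.01 on the controls and -0.01 and -0.03 on the reserpine arrays. Without 2 dpf 5-HT replicate 1 the fibrillar median difference from control at 2 dpf was 0.04 log2, with 5 of 8 above, and for type I 0.14, with 3 of 3 above. Without replicate 2 the fibrillar median was 0.415 log2. For reserpine at 2 dpf 7 of 8 fibrillar genes stood above control, against 44.7% of all genes, with a median of 0.17 log2. Without reserpine replicate 1 the median was 0.00, with 4 of 8 above, and without replicate 2 it was 0.37. At 4 dpf the fibrillar median for 5-HT was -0.16 log2 without 5-HT replicate 1 and -0.29 without replicate 2.

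The 11 basement membrane genes stood below control at 4 dpf in 11 of 11 for 5-HT (median -0.15 log2) and in 11 of 11 for reserpine (median -0.13 log2), against 43% and 57.8% of all genes, with the same 2 control arrays in both. The reserpine median was -0.26 without 4 dpf reserpine replicate 1 and -0.06 without replicate 2. The counts of 11 did not hold on every single array. On 4 dpf reserpine replicate 1, col4a1 (8.03), col4a2 (8.44) and col4a6 (8.88) read above their control means (7.93, 8.425 and 8.82). On 4 dpf 5-HT replicate 1, col4a3 read 6.09 (control mean 5.985). At 2 dpf their medians were 0.13 for 5-HT and 0.14 log2 for reserpine. Without replicate 1 of the injected group these were 0.09 and 0.01, and for 5-HT the median was 0.25 without replicate 2. The cartilage class had medians of 0.04 and 0.01 log2 at 2 dpf and -0.09 and -0.17 log2 at 4 dpf. For 5-HT the 2 dpf median turned to -0.14 without 2 dpf 5-HT replicate 1 and was 0.12 without replicate 2. The 4 dpf median for 5-HT was -0.03 without 4 dpf control replicate 2. The reserpine median at 2 dpf was 0.025 without 2 dpf reserpine replicate 1 and -0.075 without 2 dpf control replicate 2. Within the class the 4 type IX genes all stood below control with 5-HT at 2 dpf, against 50% of all genes. Their median was -0.19 log2, -0.31 without 2 dpf 5-HT replicate 1, and smaller in size without replicate 2. At 4 dpf 3 of 4 stood above (median 0.10), against 56.4% of all genes. These signs, mostly the reverse of those of the type I genes, rested in part on single arrays. For col9a2, 2 dpf 5-HT replicate 1 read 9.39, above the control mean of 9.31. The same array read 10.59 for col9a3 (control mean 10.595), 9.96 for col9a1a (10.075) and 10.17 for col9a1b (10.715). At 4 dpf, 5-HT replicate 1 read 8.76 for col9a2, below the control mean of 8.86. None of these genes passed on its own.

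**Figure D5:**
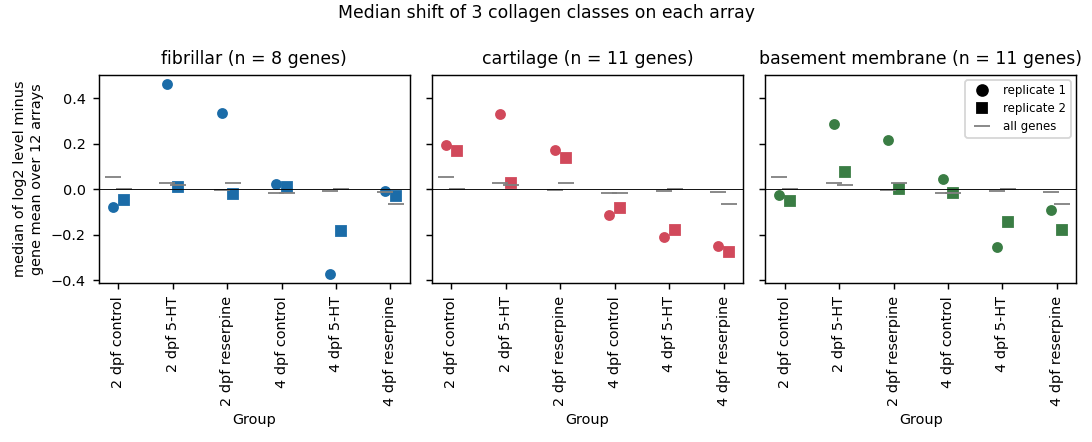
Median over the genes of 3 collagen classes of the log2 level minus the gene's mean over 12 arrays (y axis), for each array (circles replicate 1, squares replicate 2; grey dashes, all genes) by group. The fibrillar median is 0.46 on 2 dpf 5-HT replicate 1 and -0.37 on 4 dpf 5-HT replicate 1, and the cartilage median is lower at 4 dpf than at 2 dpf in each injection.

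Whether the difference from control changed between the ages was tested as an interaction. No collagen gene passed for 5-HT, where 0.608% of all genes did, and 9 of 47 had an unadjusted p under 0.05 (13.8% of all genes). The smallest p belonged to col18a1a, whose 5-HT difference was 1.18 log2 lower at 4 dpf than at 2 dpf (SE 0.33, limma adjusted p = 0.105). It passed when only the 4 groups compared were fitted (adjusted p = 0.0393) and without either 2 dpf reserpine array (0.0249). Next were col12a1a (-0.72 log2, SE 0.23), col5a3a (-0.85, SE 0.30), col1a1a (-0.81, SE 0.29) and col17a1b (-0.57, SE 0.21), with limma adjusted p of 0.156 to 0.211. All 3 type I genes had an unadjusted p under 0.05, at -0.81, -0.74 (col1a2) and -0.63 log2 (col1a1b), and col9a1b stood at 1.31 (SE 0.49, limma adjusted p = 0.212). The fibrillar median of the interaction was -0.45 log2 with 8 of 8 below 0, against 46.1% of all genes. It was -0.27 with 6 of 8 below 0 without 2 dpf 5-HT replicate 1, and -0.26 with probe sets averaged. For reserpine no gene passed among the collagens or among all genes. Of 47, 1 had an unadjusted p under 0.05, col5a3a (-0.77 log2, SE 0.30), against 0.625% of all genes. With probe sets averaged, 0 of 47 did. The second col5a3a probe set changed with age by -0.41 log2 in the controls, -0.05 with 5-HT and -0.07 with reserpine. By that probe set both col5a3a interactions thus had the other sign. The values for reserpine were small but lay mostly to one side, with 42 of 47 collagen genes below 0 (median -0.15 log2), against 49.9% of all genes. The genes share the same arrays, so this count is not one of independent values. The median ran from -0.205 to -0.12 over the alternatives, and those of the cartilage and basement membrane classes stayed below 0. Without 2 dpf reserpine replicate 1 the fibrillar median moved from -0.18 to -0.04 and the FACIT median from -0.01 to 0.20.

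The genes that fold, export, trim and crosslink collagen were described from lists written with earlier results of these data known. Of 24 measured genes of collagen folding and modification, which hydroxylate the chains and hold them in the endoplasmic reticulum, 20 fell and 1 rose (20.4% and 17% of all genes) from 2 to 4 dpf in the mean of the injections, with a median of -0.69 log2. Members of the prolyl 3-hydroxylase complex were among them: crtap read 10.23 and 10.17 in the 2 dpf controls and 8.72 and 8.87 in the 4 dpf controls, and fell by 1.23 log2 over the injections (SE 0.08, limma adjusted p = 1.17e-05), and p3h1 fell by 1.40 (SE 0.11). The prolyl isomerase genes fkbp10b and fkbp14 fell by 1.38 (SE 0.10) and 1.35 log2 (SE 0.11). The gene that rose, tmem38b, a channel of the endoplasmic reticulum, changed by 0.66 log2 (SE 0.14) and was picked after its values were seen. The count that passed was 18 to 21 without any 1 array. Of 13 export genes 5 fell (20.4% of all genes) and none rose, among them the vesicle coat genes sec23a (by 0.60 log2) and sec13 (by 0.52).

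Of 18 genes of procollagen processing and crosslinking 5 rose and 5 fell (17% and 20.4% of all genes). The transglutaminase gene tgm2a fell by 0.93 log2 (SE 0.10), tgm2b by 0.57 (SE 0.08) and pcolcea, an enhancer of the C-proteinase, by 0.48 (SE 0.08), while the meprin gene mep1a.1, whose protease is known from the gut brush border and also trims procollagen, rose by 4.44 log2 (SE 0.13). These are means of the injections, and the fall of tgm2a was larger in the controls than with 5-HT (values under Other observations). Of 12 collagen-binding receptor genes 3 fell, a share near the 20.4% of all genes: the endocytic receptor gene mrc2 (by 0.80 log2) and the integrin genes itgb1b (0.47) and itgb1a (0.29). Of 21 collagen-cleaving proteases and inhibitors 5 rose and 5 fell (17% and 20.4% of all genes), with mmp11b at -1.54 (SE 0.10), mmp11a at -0.72 (SE 0.10), mmp30 at 1.39 (SE 0.14) and timp4.3 at 1.39 log2 (SE 0.15). Of 18 TGF-beta signalling genes 4 fell, also a share near the 20.4% of all genes: tgfb2 (0.40 log2), tgfb3 (0.34), ccn2a (0.37) and tgfb1a (0.32), and 2 to 6 passed without any 1 array.

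Matrix partners of the classes were set beside the collagens, from lists also written with earlier results of these data known. The shares of all genes (20.4% lower, 17% higher) and the median of all genes (-0.06 log2) were the same as above. Because of how the lists were chosen, a count above these shares is not a test of the list. Among 25 genes of cartilage matrix and its regulators 12 fell and 3 rose, with a median of -0.32 log2. The link protein gene hapln1a fell by 1.12 log2 (SE 0.09), the head skeleton regulator barx1 by 0.84 (SE 0.08) and fgfbp2b by 0.75 (SE 0.09), and the cartilage matrix gene ucmaa rose by 1.43 (SE 0.11). Among 19 basement membrane partners 8 fell and 1 rose (median -0.26 log2), with the laminin genes lamc3 (by 0.41, SE 0.07) and lamb1a (0.36, SE 0.09) and the Fraser complex genes frem2a (0.79, SE 0.17) and frem2b (0.60, SE 0.14), and 3 of the 19 passed without 2 dpf 5-HT replicate 1. Among 31 interstitial matrix proteins 14 fell and 3 rose (median -0.23 log2), with efemp2a (by 1.25), lum (0.79), postnb (0.71) and kera (0.95), of which lum and kera encode keratan sulfate proteoglycans that space type I fibrils. Among 12 genes of bone matrix and its regulators 3 rose and 2 fell: spp1 (1.12 log2, SE 0.15), entpd5a (0.56, SE 0.11) and runx2a (0.38, SE 0.09) were higher, and dlx5a (-0.68, SE 0.10) and dlx6a (-0.35, SE 0.09) lower.

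Some markers of the cells that make collagen also differed with age, in lists too short to set apart from the 20.4% of all genes that passed as lower and the 17% that passed as higher. Of 7 chondrocyte markers 4 fell, and their list mean was 10.77 to 11.10 on the 2 dpf arrays and 10.55 to 10.76 on the 4 dpf arrays. Of 4 notochord markers 3 fell (list mean 8.57 to 9.08 and 8.10 to 8.61), of 5 fin fold markers 2 fell (11.10 to 11.59 and 10.94 to 11.05), and of 4 osteoblast markers 2 rose (7.43 to 7.74 and 7.88 to 8.25). Of 3 tenocyte markers 1 rose (8.45 to 8.89 and 8.67 to 9.12). Chondrocyte markers and cartilage matrix genes overlap in the lists, hapln1a among them. On the 2 dpf arrays the fin fold list mean was 11.59 and 11.31 with 5-HT, 11.41 and 11.10 with reserpine and 11.24 and 11.14 in controls, highest on the 2 arrays with the highest fibrillar medians, and the epidermis list mean was 12.18 and 12.07, 12.11 and 11.86, and 11.85 and 11.89. The part of these markers in the collagen values was not tested.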

How the data were processed

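The authors deposited 1 value per feature and array, read from its range as on a log2 scale. For the software, the normalization and the build, the sources used here give no name. The 73244 features were named from GEO's platform annotation: 20491 carried 1 symbol, 842 several and 51911 none, and only those with 1 were named. The filter kept features that were at or above the 25th percentile of their own array on 2 or more arrays (58127 features, 18407 genes by 1 probe set each). Group means were fitted with limma 3.58.1 (R 4.3.3, lmFit then eBayes, two-sided) to the 12 arrays in 6 groups with 6 residual degrees of freedom, Benjamini-Hochberg over all features within a comparison, threshold 0.05, and the fit was tested on simulated data. The number of arrays, 2 per group, limits the precision (median SE 0.20 log2 for a difference of 2 groups).

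Members, lists and classes were chosen with earlier results of these data known. Any collagen gene could be named. Full statistics were for up to 10 called rises and falls per age comparison, otherwise the 5 smallest p-values, and for fixed class representatives. Other lists gave up to 4 called genes with the smallest p, and the text gives a selection. Alternatives were quantile normalization, subtracted medians, other filters, limma-trend, averaged probe sets, only the groups compared, the replicate block and each array left out. RefSeq names came from assembly GRCz12tu.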

Additional observations from a re-analysis of the deposited data

How the results depend on the processing

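No collagen call changed direction under any alternative. Over the 36 calls of single collagen genes and all alternatives, 524 were kept and 173 lost, most losses coming with an array left out. Counts of collagen genes called that moved by over 1.5 times were, with age under 5-HT (7 as reported), 12 with the replicate block, 4 with no filter and 2 with only the groups compared, in the controls (3 as reported) 5 with a stricter filter and 5 with limma-trend, under reserpine (4 as reported) 1 with only the groups compared, and in the 5-HT interaction (0 as reported) 1 with only the groups compared. The cause was not tested. Without any 1 array the counts ranged from 0 to 3 in the controls, 0 to 10 with 5-HT, 0 to 4 with reserpine, 12 to 24 in the mean of the injections and 0 to 1 in the 5-HT interaction, and were 0 in the other comparisons. Leaving out an array left its group with 1 array, assumed to vary like the others. Over the class medians, 2040 values under alternatives stayed within the replicate spread and 111 did not.

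The labels give each group replicates 1 and 2 but no batch or clutch. Deviations of same-numbered arrays correlated at -0.07 to 0.33, over 0.1 in 12 of 15 pairs of groups and in 6 of 6 pairs of the same age. The pairs that did not exceed 0.1 were all between the ages. Since the labels name no pairing, the numbers were not taken to pair the pools. The shared deviation within an age is a hint from the data, not the design. With the replicate as a block 3 collagen genes passed in the controls, 5 with reserpine, 25 in the mean of the injections and 0 in every comparison between injections. That block held the replicate effect equal at both ages, so it did not address a pairing within an age. No fit of only the groups compared exists for the mean of the injections, which uses all groups. With 2 arrays per group and SEs of 0.14 to 0.35 log2 for a collagen gene between 2 groups, differences of the size seen between injections could not be told from the spread.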

Other observations

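Of 224 genes in the matrix and marker lists, 3 differed between the ages in their 5-HT difference from control (interaction, limma adjusted p under 0.05), against 0.608% of all genes. The transglutaminase gene tgm2a, whose enzyme crosslinks matrix proteins, read 9.02 and 8.78 in the 2 dpf controls and 8.01 and 7.92 with 5-HT, and 7.43 and 7.43 against 7.63 and 7.74 at 4 dpf (interaction 1.19 log2, SE 0.24, adjusted p = 0.0421). The membrane-anchored protease inhibitor gene reck read 10.46 and 10.35 in the 2 dpf controls and 10.98 and 11.19 with 5-HT, and 10.67 and 10.71 against 10.27 and 10.16 at 4 dpf (interaction -1.16 log2, SE 0.24, adjusted p = 0.0463). The actinodin gene and3, whose protein builds the fin fold rods of fish together with collagen, read 12.07 and 12.34 in the 2 dpf controls and on average 0.75 log2 more with 5-HT (SE 0.20), and 12.62 and 12.72 against 12.07 and 12.15 at 4 dpf (interaction -1.31 log2, SE 0.28, adjusted p = 0.0471). For and3 and reck, as for the type I genes, the 5-HT arrays lay above the controls at 2 dpf and below them at 4 dpf, and 2 dpf reserpine replicate 1 (12.94 and 11.01) lay with the 5-HT arrays while replicate 2 (12.34 and 10.52) lay with the controls.

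Collagen probe sets outside the rule were given as values. The upper-case symbol COL7A1 changed by -0.44 log2 with age in the mean of the injections (SE 0.09, limma adjusted p = 0.00811), beside -0.73 for col7a1l. COL13A1 stood at -0.18, COL25A1 at -0.01 and the probe set shared by col5a3a and col5a3 at -0.24 log2.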
